A study of Homo sapiens with 48 samples.

Results

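The 10 transcripts described here are those of the 7 cyclin-dependent kinase (CDK) inhibitor genes and the 3 D-type cyclin genes. They were taken by symbol from a matrix of raw gene counts: CDKN1A, CDKN1B and CDKN1C (the CIP/KIP inhibitors), CDKN2A, CDKN2B, CDKN2C and CDKN2D (the INK4 inhibitors), and CCND1, CCND2 and CCND3, 10 of 33892 rows. The counts came from 48 RNA-seq libraries of 8 human cancer cell lines. The lines model 4 tumour types with 2 lines each: colon (RKO, DLD-1), lung (H-23, H-1299), pancreas (PANC-1, CAPAN-2) and multiple myeloma (H-929, RPMI). Each line was exposed for 24 h either to carfilzomib, an irreversible proteasome inhibitor, dosed at the line's own IC50 for proteasome activity, or to the solvent DMSO, with 3 biological replicates per arm. Each line is a single culture-adapted model and the drug concentration was set separately for each line, so a difference between lines cannot be told apart from a difference in dose.

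CDK inhibitors and D-type cyclins set how fast a cell leaves G1. D-type cyclins bind and activate CDK4 and CDK6, which phosphorylate the retinoblastoma protein and so free E2F factors to switch on S-phase genes. INK4 proteins block CDK4 and CDK6 only, while the CIP/KIP proteins p21, p27 and p57 block CDK2 complexes and also help D-type cyclins assemble with their kinases. The p21, p27 and D-type cyclin proteins are themselves substrates of the proteasome, and INK4 genes are often lost in tumours. The libraries measured RNA, so protein levels were not observed.

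Library totals ran from 9116329 to 64369098 counts, and the group with the fewest counts was H-929 with carfilzomib. All 6 plasma cell markers exceeded 1 CPM (the read count scaled to library size) in the DMSO libraries of H-929 and RPMI, and 2 or 3 of them did so in each other line. All 5 epithelial markers exceeded 1 CPM in DLD-1, H-23, PANC-1 and CAPAN-2. Of the myeloma lines, RPMI had 4 of the 5 above 1 CPM, with EPCAM at a mean of 118 CPM, and H-929 had 1. In H-1299 the epithelial genes EPCAM, KRT19 and CDH1 and the lung gene SFTPB were at or below 1 CPM, and NAPSA averaged 0.921 CPM. NAPSA, also a lung gene, was highest in the myeloma line H-929 (41.8 CPM), against 2.38 CPM in H-23. In RKO KRT19, CDH1 and the colon gene VIL1 were at or below 1 CPM, while the colon gene CDX2 averaged 20.9 CPM. LGALS4 was at 0 in the DMSO libraries of both colon lines. The summed level of 3 pancreas markers was 5.48 to 6.72 CPM in PANC-1 against 1407 to 1512 CPM in CAPAN-2, most of it KRT7 (a mean of 1332 CPM), while PDX1 was near 1 CPM in both (1.14 and 1.06). Counting that pools cells cannot tell fewer cells from less RNA per cell, and this holds for every value below.

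Carfilzomib changed these transcripts in both directions. CDKN1B, CDKN2A, CDKN2B, CCND1, CCND2 and CCND3 were called higher in some lines and lower in others. CDKN1A and CDKN1C were called only higher, and CDKN2C and CDKN2D only lower. Of the 80 gene and line pairs, 69 had enough counts to be tested, 21 were higher with carfilzomib, 21 were lower and 27 were not called (edgeR quasi-likelihood test, Benjamini-Hochberg adjusted p below 0.05). Over all genes and lines tested, 20.8% of pairs were higher and 21.1% lower, and whether these genes differ from that background was not tested. The CIP/KIP genes rose in 10 of 18 tested pairs and fell in 2. Of the 10, 2 were CDKN1C in the myeloma lines, which passed the filter on low counts only through its treated libraries and so had to be higher. CDKN1A rose in 5 of 8 lines, and CDKN1B rose in 3 of 8 and fell in 2. The INK4 genes rose in 5 of 28 and fell in 11, and the D-type cyclins rose in 6 of 23 and fell in 8.

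The lines differed in how many of the genes moved, as did all genes. In RKO 0 of 9 rose and 1 fell, where 3.62% of 14522 genes rose and 5.28% fell. In DLD-1 2 of 8 rose and 1 fell, against 10.9% and 12.1% of all genes, and in H-23 3 of 9 rose and 2 fell, against 17.7% and 16.2%. H-1299 had 2 of 9 higher and 5 lower against 29.8% and 31.3%, and PANC-1 had 2 of 7 higher and 2 lower against 20.5% and 18.2%. CAPAN-2 had 3 of 8 higher and 3 lower against 25.7% and 26.7%. In the myeloma lines, H-929 had 5 of 10 higher and 3 lower against 26.4% and 26.2%, and RPMI had 4 of 9 higher and 4 lower against 31.3% and 32.2%. CDKN1C, which had to be higher once tested, was 1 of the higher genes in each of these lines.

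**Figure D1:**
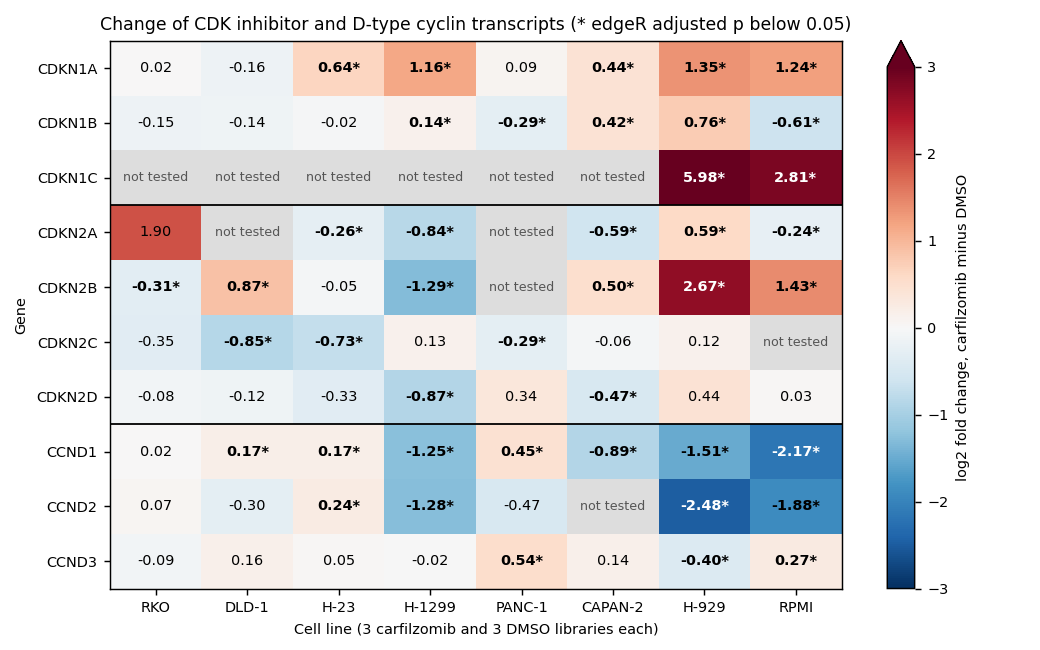
Log2 fold change, carfilzomib minus DMSO, of the 10 genes (vertical axis) in the 8 lines (horizontal axis), each from 3 libraries per arm. Bold values with an asterisk passed the edgeR adjusted p of 0.05 and grey cells were not tested. CDKN1A rose in 5 lines and passed the test downward in no line, while CCND1 fell in 4 (RPMI, H-929, CAPAN-2 and H-1299) and rose in DLD-1, H-23 and PANC-1.

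The size of the change differed between lines for all 10 genes in a joint edgeR fit of the 48 libraries, a test that 67.7% of 22309 genes passed. CDKN1C entered that fit only through its treated libraries in the myeloma lines, so its difference between lines had to follow. The F statistic was highest for CCND1 (205.8) and CDKN2B (144.6) and lowest for CDKN2D (7.57). The DMSO level also differed between lines for all 10 genes, as it did for 97.6% of all genes. For CDKN1C that rested on 0 to 11 counts per DMSO library. With replicate spread as the error, the average over the 8 lines was 0.56 ± 0.0290 log2 units (SE) for CDKN1A (edgeR adjusted p = 3.08e-21) and -0.67 ± 0.0235 for CCND1 (adjusted p = 1.57e-27). In that test 19.8% of genes were higher and 23.9% lower. With the 8 lines as the units instead (limma), CDKN1A had a mean of 0.60 (adjusted p = 0.114) and CCND1 one of -0.63 (adjusted p = 0.213), and neither passed. Few genes passed that test, with 57 called higher and 45 lower of 11622.

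**Figure D2:**
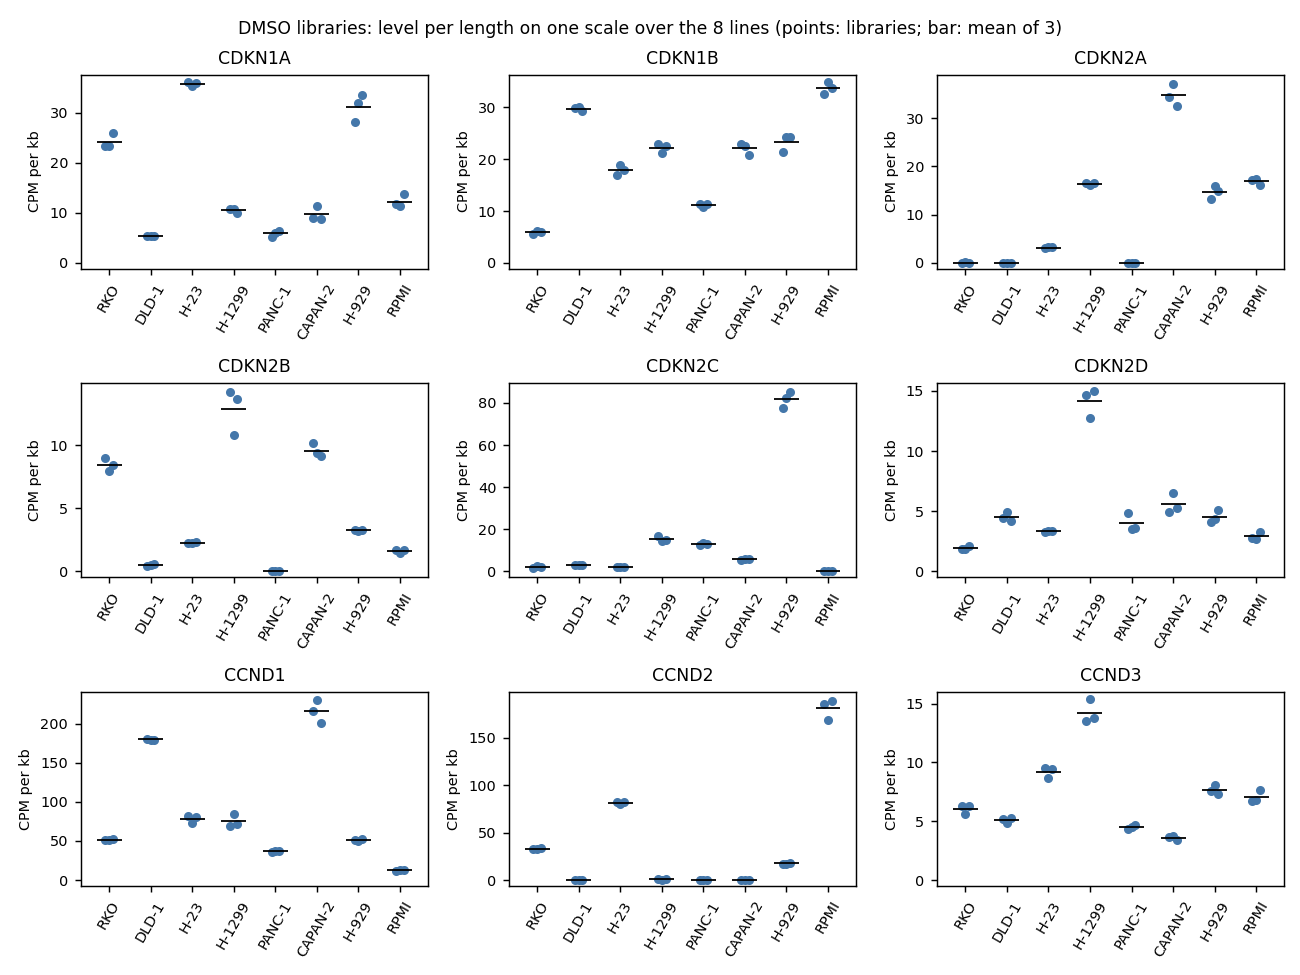
Level of 9 of the genes in the DMSO libraries, as CPM per kilobase of exon on one scale over all lines (linear vertical axes that differ between panels, points are libraries, bars are means of 3). CDKN2C stood at 81.7 CPM per kb in H-929 and at most 15.4 elsewhere, and CCND2 ranged from 0 in CAPAN-2 to 181 in RPMI.

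CDKN1A, on chromosome 6 (36676460 to 36687339, plus strand, hg38), encodes p21, the inhibitor that is induced after DNA damage and halts the cycle in G1. Its promoter is shown because CDKN1A rose in more lines than any other of the 10 genes. The RefSeq window (GRCh38.p14, chr6:36678464-36678763, plus strand, 250 bases before to 50 after the start) reads 5′ to 3′ with GC boxes in capitals (GGGCGG on either strand, the element bound by SP1 and related factors):
CDKN1A promoter: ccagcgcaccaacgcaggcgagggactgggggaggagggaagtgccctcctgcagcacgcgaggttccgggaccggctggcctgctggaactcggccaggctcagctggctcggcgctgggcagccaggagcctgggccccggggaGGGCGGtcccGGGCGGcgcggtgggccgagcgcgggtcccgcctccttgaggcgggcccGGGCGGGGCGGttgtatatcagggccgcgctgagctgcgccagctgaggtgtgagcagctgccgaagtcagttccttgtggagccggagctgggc
The window held 4 GC boxes, starting at positions -104, -94, -45 and -40 from the start site, the last 2 of which share a base. A GC box was present in 44.95% of the 35116 RefSeq windows of this length. The window had 29 CpG dinucleotides, against a median of 14 over all windows. None of the letters searched for AP-1 (TGANTCA), the heat shock element (GAANNTTC), the antioxidant element (TGACNNNGC) or the amino acid response element (TGATGNAA) was in this window. These occurred in 7.71%, 6.77%, 13.3% and 3.62% of all windows. E2F letters (TTTCGCGC or TTTGGCGC), the CRE (TGACGTCA) and the E-box (CACGTG), in 1.15%, 1.85% and 7.26% of all windows, were not in it either.

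CDKN1A rose with carfilzomib in both myeloma lines, both lung lines and CAPAN-2. In H-929 the DMSO libraries had 79.5, 90.0 and 95.9 CPM and the carfilzomib libraries had 240, 213 and 223 CPM. Every treated library exceeded every control there, and the edgeR log2 fold change was 1.35 ± 0.0888 (SE, adjusted p = 2.91e-08). In RPMI, 32.3, 30.8 and 36.4 CPM became 74.0, 77.7 and 83.9 CPM, a log2 change of 1.24 ± 0.0738 (edgeR adjusted p = 6.18e-09). H-1299 rose to a similar extent. Its libraries had 30.2, 30.7 and 28.2 CPM with DMSO and 65.4, 66.9 and 67.0 CPM with carfilzomib, a log2 change of 1.16 ± 0.0555 (edgeR adjusted p = 2.92e-09).

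The 2 smaller increases were in H-23 and CAPAN-2. H-23 went from 122, 121 and 120 CPM to 193, 188 and 186 CPM, a log2 change of 0.64 ± 0.0354 (edgeR adjusted p = 1.93e-08). CAPAN-2 went from 25.3, 32.05 and 24.8 CPM to 38.1, 34.1 and 38.8 CPM, a log2 change of 0.44 ± 0.0912 (edgeR adjusted p = 9.27e-04), and its highest DMSO library lay just below its lowest carfilzomib library. RKO had 80.3, 80.5 and 86.8 CPM with DMSO and 74.7, 90.1 and 87.0 CPM with carfilzomib. Those ranges overlapped and the log2 change was 0.02 ± 0.0709 (edgeR adjusted p = 0.901). DLD-1 (-0.16 ± 0.0756) and PANC-1 (0.09 ± 0.0758) were not called either.

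The DMSO level of CDKN1A, per length and on the scale common to all lines, was highest in H-23 (35.9 ± 0.354 CPM per kb, SD, n = 3), followed by H-929 (31.2) and RKO (24.3). RPMI (12.3) came next, then H-1299 (10.6) and CAPAN-2 (9.70), whose libraries overlapped. PANC-1 (5.90) and DLD-1 (5.40) were lowest and also overlapped. Of the 3 lines without a call, RKO thus stood in the upper part of this order and PANC-1 and DLD-1 at its lower end. CDKN1A shares 146 bases of exon with DINOL on the opposite strand, and whether the counting used strand is not given in the sources used here.

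**Figure D3:**
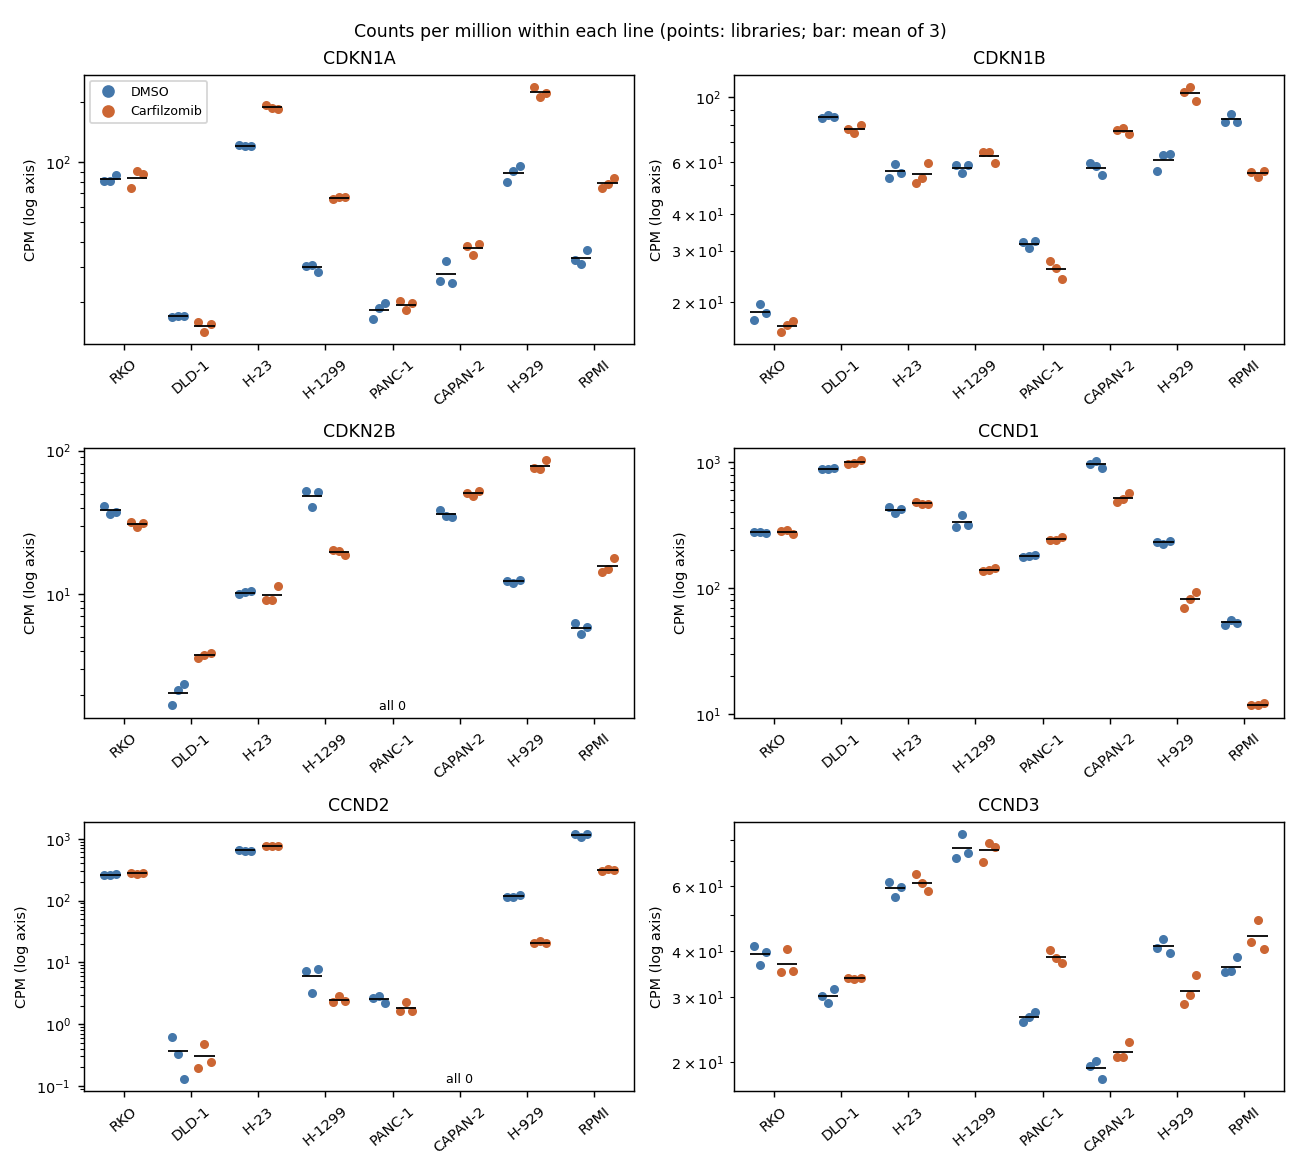
CPM within each line of CDKN1A, CDKN1B, CDKN2B, CCND1, CCND2 and CCND3 (log vertical axes, points are libraries, bars are means of 3, blue DMSO and orange carfilzomib). CDKN1A points are separated upward in 5 lines, CDKN2B is at 0 in PANC-1 and CCND2 at 0 in CAPAN-2.

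CDKN1B, on chromosome 12 (12715058 to 12722371, plus strand, hg38), encodes p27, which holds CDK2 inactive in resting cells and is marked for destruction by the SKP2 ubiquitin ligase. Its transcript rose in H-929 and CAPAN-2 and fell in RPMI and PANC-1, so the myeloma lines moved in opposite directions. H-929 went from 55.9, 63.2 and 63.9 CPM to 104, 108 and 96.5 CPM, and RPMI from 82.5, 87.3 and 82.3 CPM to 55.4, 53.6 and 56.1 CPM. The groups did not overlap in either line, and the edgeR log2 changes were 0.76 ± 0.0922 (adjusted p = 1.02e-05) and -0.61 ± 0.0538 (adjusted p = 3.10e-07).

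The pancreatic lines also went in opposite directions for CDKN1B. CAPAN-2 rose from 57.4 ± 2.87 to 76.8 ± 1.91 CPM (SD, n = 3, edgeR log2 change 0.42, adjusted p = 2.67e-05), and PANC-1 fell from 31.6 ± 0.995 to 25.9 ± 1.81 CPM (-0.29, adjusted p = 0.00154). In H-1299 it was called higher at 0.14 ± 0.0536 (edgeR adjusted p = 0.0420), a call that was lost in 5 of the 6 leave-outs of a single library (highest adjusted p = 0.178, without the first carfilzomib library) and with scaling by library totals, at 0.03. In DLD-1 the groups did not overlap (84.9, 86.5 and 85.2 against 77.7, 75.2 and 80.6 CPM) but the change of -0.14 did not pass (edgeR adjusted p = 0.0525, or 0.0431 without the third DMSO library). RKO (-0.15) and H-23 (-0.02) were not called. The average over the 8 lines was -0.03 ± 0.0229 (edgeR adjusted p = 0.358). DMSO levels ran from 33.7 CPM per kb in RPMI and 29.7 in DLD-1 to 11.2 in PANC-1 and 5.90 in RKO, with H-929 (23.4), H-1299 (22.2) and CAPAN-2 (22.1) overlapping.

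CDKN1C encodes p57, an imprinted growth-restraining inhibitor. Its row in the matrix carries an identifier that is absent from GENCODE 29 and that a second row shares, so its level is uncertain and no position or length is given. It was near the detection limit in every DMSO group and had enough counts for a test only in the myeloma lines. In H-929 the DMSO libraries held 1, 2 and 1 counts and the carfilzomib libraries 36, 47 and 73 counts. With library sizes adjusted as for CPM within the line and summed per group, this was a ratio of 69.8 (95% exact interval 26.7 to 259, counting error only). The edgeR log2 change was 5.98 ± 0.570 (adjusted p = 9.78e-07).

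In RPMI the CDKN1C counts were 1, 6 and 3 with DMSO and 12, 30 and 13 with carfilzomib, a ratio of 7.31 (95% exact interval 3.69 to 16.1) and a log2 change of 2.81 ± 0.608 (edgeR adjusted p = 0.00113). Genes this low in the controls entered the test only through their treated libraries: all 163 tested genes of H-929 with at most 2 counts in every DMSO library were called higher, and so were all 130 of RPMI with at most 6. In the other 6 lines no library held more than 11 counts of CDKN1C, and in H-1299 the DMSO libraries held 0, which allows up to 0.0209 CPM over the group (3 counts).

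CDKN2A and CDKN2B lie side by side on chromosome 9 (21967753 to 21995301 and 22002903 to 22009363, both minus strand, hg38), a region often deleted in cancer. CDKN2A yields p16INK4a and, from an upstream first exon read in another frame, ARF, an inhibitor of MDM2, and one row of counts cannot separate them. CDKN2B encodes p15, an INK4 inhibitor that TGF-beta induces. Their RefSeq promoter windows are shown because the neighbours went in opposite directions in 2 lines (GRCh38.p14, minus strand, 5′ to 3′, GC boxes in capitals on either strand):
CDKN2B promoter, chr9:22009256-22009555: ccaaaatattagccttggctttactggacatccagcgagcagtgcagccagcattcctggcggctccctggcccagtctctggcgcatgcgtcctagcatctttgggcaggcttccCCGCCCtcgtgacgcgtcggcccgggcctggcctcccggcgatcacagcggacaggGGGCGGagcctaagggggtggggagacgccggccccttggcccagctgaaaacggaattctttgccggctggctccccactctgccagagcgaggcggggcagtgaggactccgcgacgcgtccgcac
CDKN2A window 1, chr9:21974808-21975107: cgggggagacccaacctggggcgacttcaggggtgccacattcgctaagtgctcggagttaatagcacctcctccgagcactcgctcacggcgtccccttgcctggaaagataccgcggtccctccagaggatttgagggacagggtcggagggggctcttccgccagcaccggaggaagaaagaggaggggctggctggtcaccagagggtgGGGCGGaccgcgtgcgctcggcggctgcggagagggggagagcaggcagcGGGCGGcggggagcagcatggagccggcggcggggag
CDKN2A window 2, chr9:21995275-21995574: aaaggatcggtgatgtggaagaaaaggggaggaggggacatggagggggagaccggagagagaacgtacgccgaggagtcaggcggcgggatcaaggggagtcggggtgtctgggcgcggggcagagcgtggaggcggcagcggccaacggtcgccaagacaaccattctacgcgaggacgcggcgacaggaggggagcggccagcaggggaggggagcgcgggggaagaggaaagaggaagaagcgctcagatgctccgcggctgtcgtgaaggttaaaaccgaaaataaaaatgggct
The CDKN2B window held 2 GC boxes, at -134 and -78, and CDKN2A window 1 held 2, at -37 and 13. CDKN2A window 2 held none. CpG dinucleotides numbered 25, 26 and 28 in the order printed. None of the other 7 motifs searched for in CDKN1A was in these 3 windows. RefSeq windows were matched for 7 of the 10 genes.

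CDKN2B had the largest tested increase among the INK4 genes. In H-929 the DMSO libraries had 12.4, 11.98 and 12.6 CPM and the carfilzomib libraries 76.1, 74.2 and 85.5 CPM. The groups were far apart, at a log2 change of 2.67 ± 0.112 (edgeR adjusted p = 3.01e-10), where 95.2% of all tested genes in H-929 had a lower value. RPMI rose from 6.34, 5.31 and 5.92 CPM to 14.2, 14.9 and 17.96 CPM (1.43 ± 0.136, edgeR adjusted p = 7.03e-07).

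H-1299 moved the other way for CDKN2B, from 52.5, 40.8 and 51.1 CPM to 20.4, 19.98 and 18.7 CPM, a log2 change of -1.29 ± 0.0928 (edgeR adjusted p = 9.78e-08). CAPAN-2 rose from 35.9 ± 2.11 to 50.7 ± 2.191 CPM (SD, n = 3, edgeR adjusted p = 1.19e-05), and DLD-1 from 2.06 ± 0.346 to 3.76 ± 0.151 CPM (edgeR adjusted p = 0.00405). In RKO the fall from 38.3 ± 2.57 to 30.8 ± 1.40 CPM passed narrowly (edgeR adjusted p = 0.0294) and was lost in 5 of the 6 leave-outs of a single library, all but that of the second DMSO library (highest adjusted p = 0.110). H-23 was not called (-0.05). Over the 7 lines with counts the average was 0.50 ± 0.0412 (edgeR adjusted p = 6.76e-14), with replicate spread as the error. The single lines ran from -1.29 to 2.67, and the average of CDKN2B was not tested with lines as units.

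CDKN2A fell in CAPAN-2, H-1299, RPMI and H-23 and rose in H-929. CAPAN-2, with the highest level, went from 138, 149 and 130 CPM to 87.8, 93.0 and 96.8 CPM, a log2 change of -0.59 ± 0.0628 (edgeR adjusted p = 2.00e-06). H-1299 went from 65.0, 65.3 and 66.0 CPM to 33.2, 38.6 and 37.9 CPM, a change of -0.84 ± 0.0625 (edgeR adjusted p = 1.34e-07). Neither line's groups overlapped. In CAPAN-2 CDKN2A thus fell while CDKN2B rose, and in RPMI CDKN2A fell (-0.24, edgeR adjusted p = 0.00352) while CDKN2B rose.

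In H-929 CDKN2A rose with CDKN2B, from 53.4, 63.8 and 60.1 CPM to 95.2, 86.2 and 86.0 CPM (0.59 ± 0.0968, edgeR adjusted p = 1.41e-04). The H-23 fall, from 15.3 ± 0.874 to 12.8 ± 0.268 CPM (edgeR adjusted p = 0.0203), was lost without the second DMSO library (adjusted p = 0.0842), the third DMSO library (0.0536) or the second carfilzomib library (0.0610). RKO and DLD-1 held almost no CDKN2A. RKO had 1, 9 and 7 counts with DMSO and 25, 14 and 22 with carfilzomib, and it passed the filter on low counts only through the treated libraries, so that a higher value there had to follow. The change of 1.90 ± 0.579 did not pass (edgeR adjusted p = 0.0622) although it did in the joint fit (adjusted p = 0.00105) and without the second DMSO library (2.55, adjusted p = 0.0442). In DLD-1, where each library held 0 to 10 counts, it was not tested. CDKN2A shares 341 bases of exon with CDKN2B-AS1 on the opposite strand.

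PANC-1 had 0 counts of CDKN2A and of CDKN2B in all 6 libraries, which allows up to 0.0330 CPM over the DMSO group and 0.0307 CPM over the carfilzomib group (3 counts each). CDKN2B-AS1, the antisense RNA of the locus, was also at 0 there. Of the protein-coding neighbours, MTAP on one side held 362 to 578 counts per library and DMRTA1 on the other 564 to 812. MTAP was lower in PANC-1 (12.7 CPM in DMSO, scale common to all lines) than in any other line, where it ran from 45.2 CPM in H-23 to 411 CPM in RKO. These neighbours were examined after the zeros were seen, and DNA copy number was not measured.

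CDKN2C, on chromosome 1 (50960745 to 50974633, plus strand, hg38), encodes p18, the INK4 protein that restrains the cell cycle during plasma cell differentiation. Its highest level was in one myeloma line and it was absent from the counts of the other. H-929 had 81.7 ± 3.70 CPM per kb in DMSO (SD, n = 3), against 15.4 in H-1299 and 13.1 in PANC-1, the next lines. RPMI had 0 counts in all 6 libraries, which allows up to 0.0364 CPM over the DMSO group. The adjacent gene FAF1 was also at 0 in all 6 RPMI libraries and reached 7224 counts in other lines, while RNF11, further along, held 1358 to 2773 counts in RPMI. FAF1 and RNF11 were looked at after the zeros were seen.

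Carfilzomib lowered CDKN2C in DLD-1, H-23 and PANC-1 and it was not called higher in any of the 7 lines tested. In DLD-1 the libraries went from 10.4, 10.4 and 10.2 CPM to 5.62, 5.82 and 5.78 CPM, without overlap (log2 change -0.85 ± 0.0969, edgeR adjusted p = 1.74e-04). H-23 fell from 8.09 ± 0.573 to 4.90 ± 0.448 CPM (-0.73, edgeR adjusted p = 4.23e-04) and PANC-1 from 43.8 ± 1.35 to 35.8 ± 2.18 CPM (-0.29, adjusted p = 7.20e-04). In H-929 the values of 239, 252 and 265 CPM with DMSO and 296, 249 and 278 CPM with carfilzomib overlapped (0.12 ± 0.0807, edgeR adjusted p = 0.219). RKO (-0.35), H-1299 (0.13) and CAPAN-2 (-0.06) were not called, although H-1299 was without its first DMSO library (0.19, adjusted p = 0.0236). Over the 7 lines with counts the average was -0.33 ± 0.0376 (edgeR adjusted p = 7.94e-10). Its error is replicate spread, and it was not tested with lines as units.

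CDKN2D, on chromosome 19 (10566462 to 10569059, minus strand, hg38), encodes p19INK4d, the INK4 inhibitor whose level follows the cell cycle. It was detected in all 8 lines at low levels, from 14.1 ± 1.23 CPM per kb in H-1299 to 1.94 ± 0.167 in RKO (DMSO, SD, n = 3). Carfilzomib lowered it in H-1299, from 20.1, 17.8 and 20.8 CPM to 11.2, 10.9 and 10.004 CPM (-0.87 ± 0.0929, edgeR adjusted p = 3.56e-06). In CAPAN-2 it fell from 7.79 ± 1.14 to 5.63 ± 0.434 CPM (-0.47, edgeR adjusted p = 0.0108), and without the second DMSO library that call was lost (adjusted p = 0.0668). The other 6 lines were not called, with log2 changes from -0.33 in H-23 to 0.44 in H-929. Of these, PANC-1 (0.34) was called higher without its first DMSO library (0.49, adjusted p = 0.00762) and H-23 lower without the third of its carfilzomib libraries (-0.41, adjusted p = 0.0478).

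In H-1299 the 3 tested INK4 genes other than CDKN2C fell together, and per length the INK4 sum went from 58.9 to 37.3 CPM per kb while the share of CDKN2C in it went from 26.2% to 43.3%. In H-929, CDKN2C made up 78.4% of that sum with DMSO and 64.4% with carfilzomib, as CDKN2B went from 3.15% to 15.1%. In RPMI, where CDKN2C was at 0, CDKN2A made up 78.8% of the sum with DMSO. PANC-1 held only CDKN2C (76.6%) and CDKN2D (23.4%). These shares compare mean levels per length of 3 libraries and were not tested.

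CCND1, on chromosome 11 (69641087 to 69654474, plus strand, hg38), encodes cyclin D1, the D-type cyclin of most epithelial tissues. It fell in H-1299, CAPAN-2 and both myeloma lines and rose modestly in DLD-1, H-23 and PANC-1. RPMI had 51.2, 55.4 and 53.2 CPM with DMSO and 11.6, 11.8 and 12.1 CPM with carfilzomib, a log2 change of -2.17 ± 0.0744 (edgeR adjusted p = 4.46e-11). H-929 went from 231, 225 and 239 CPM to 69.1, 82.2 and 92.4 CPM (-1.51 ± 0.0986, adjusted p = 2.67e-08). In both myeloma lines the highest treated library lay far below the lowest control.

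Among the carcinoma lines, H-1299 went from 304, 381 and 320 CPM of CCND1 to 137, 140 and 144 CPM (-1.25 ± 0.0707, edgeR adjusted p = 1.16e-08). CAPAN-2 went from 969, 1027 and 899 CPM to 482, 511 and 570 CPM (-0.89 ± 0.0694, edgeR adjusted p = 7.97e-08). PANC-1 rose from 177, 181 and 182 CPM to 242, 240 and 254 CPM (0.45 ± 0.0338, edgeR adjusted p = 5.24e-07), so the pancreatic lines moved in opposite directions, as the lung lines did.

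The increases of CCND1 in DLD-1 (890 ± 6.30 to 1004 ± 33.98 CPM, SD, n = 3, edgeR adjusted p = 0.00795) and H-23 (421 ± 22.2 to 475 ± 11.04 CPM, adjusted p = 0.00308) were both 0.17 on the log2 scale. A single fit of all 48 libraries called neither (edgeR adjusted p = 0.0667 and 0.0950), and without the third carfilzomib library DLD-1 was not called (0.0527). RKO had 278 ± 3.29 and 281 ± 9.26 CPM and was not called. The DMSO level per length was highest in CAPAN-2 (216 CPM per kb) and DLD-1 (180), then H-23 (78.7) and H-1299 (75.2), which overlapped, RKO (51.7) and H-929 (51.6), which overlapped, PANC-1 (36.95) and RPMI (12.4). CCND1 shares 497 bases of exon with LTO1 on the opposite strand.

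CCND2, on chromosome 12 (4273772 to 4305350, plus strand, hg38), encodes cyclin D2, prominent in lymphoid cells and raised in myelomas with MAF or NSD2 translocations. Its level spanned the widest range of the D-type cyclins. RPMI had 181 ± 11.1 CPM per kb in DMSO (SD, n = 3), H-23 81.5 ± 1.18, RKO 33.01 ± 0.876 and H-929 17.6 ± 0.455. H-1299 (0.917), PANC-1 (0.356) and DLD-1 (0.0495) were below 1 CPM per kb, and no 2 neighbours in this order overlapped. CAPAN-2 had 0 counts in all 6 libraries, which allows up to 0.0257 CPM over the DMSO group, while the adjacent gene TIGAR held 579 to 980 counts there and PARP11, on the other side, 145 to 217. TIGAR and PARP11 were looked at after the zeros were seen.

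Carfilzomib lowered CCND2 in both myeloma lines. RPMI went from 1201, 1076 and 1178 CPM to 305, 321 and 314 CPM (-1.88 ± 0.0568, edgeR adjusted p = 1.57e-11). H-929 went from 115, 114 and 121 CPM to 20.4, 22.1 and 20.4 CPM (-2.48 ± 0.0969, edgeR adjusted p = 1.53e-10). These were the largest falls of the gene, with groups separated several-fold. In H-1299 CCND2, at 55 to 481 counts per library, fell from 7.13, 3.17 and 7.80 CPM to 2.25, 2.81 and 2.39 CPM (-1.28 ± 0.278, edgeR adjusted p = 0.00144), the second DMSO library being nearest the treated ones.

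H-23 went the other way for CCND2, from 652, 643 and 645 CPM to 764, 774 and 757 CPM (0.24 ± 0.0267, edgeR adjusted p = 9.59e-06), a call that the fit of all 48 libraries did not make (adjusted p = 0.128). RKO (261, 263 and 266 against 279, 274 and 275 CPM) did not overlap but was not called (0.07, edgeR adjusted p = 0.320). PANC-1 (-0.47, edgeR adjusted p = 0.0661, or -0.64 and 0.0279 without its second carfilzomib library) and DLD-1, with 4 to 30 counts per library, were not called. CCND2 shares 126 bases of exon with CCND2-AS1 on the opposite strand and 989 with AC008012.1 on its own strand.

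CCND3, on chromosome 6 (41934933 to 42050357, minus strand, hg38), encodes cyclin D3, the D-type cyclin of germinal centre B cells. It was called in 3 of the 8 lines. It rose in PANC-1, from 25.7, 26.6 and 27.3 CPM to 40.3, 38.3 and 37.1 CPM (0.54 ± 0.0505, edgeR adjusted p = 3.60e-06). It fell in H-929, from 40.7, 43.2 and 39.6 CPM to 28.7, 30.4 and 34.5 CPM (-0.40 ± 0.114, adjusted p = 0.00856). Neither line's groups overlapped.

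RPMI had a small increase of CCND3 (36.3 ± 1.96 to 43.8 ± 4.27 CPM, SD, n = 3, edgeR adjusted p = 0.00932), which was lost without the second carfilzomib library (adjusted p = 0.0654). The other 5 lines were not called, between -0.09 in RKO and 0.16 in DLD-1 (edgeR adjusted p = 0.0668, or 0.0254 without the third of its DMSO libraries), and the average over lines was 0.04 ± 0.0261 (edgeR adjusted p = 0.259). DMSO levels ran from 14.2 CPM per kb in H-1299 to 3.59 in CAPAN-2, a narrower range than for CCND1 or CCND2. They still differed between lines (joint edgeR fit, adjusted p = 8.33e-29).

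Summed per length, the D-type cyclin transcripts were lower with carfilzomib in 4 lines. RPMI went from 201 ± 11.1 to 57.4 ± 2.13 CPM per kb (SD, n = 3) and H-929 from 76.8 ± 1.26 to 24.1 ± 2.61. CAPAN-2 went from 220 ± 14.6 to 122 ± 9.88 and H-1299 from 90.3 ± 9.13 to 43.7 ± 1.59. In all 4 the ranges of the 3 libraries did not overlap. PANC-1 was higher, from 41.8 ± 0.892 to 57.0 ± 1.11, as did DLD-1 (185 to 208) and H-23 (169 to 192), while RKO was at 90.8 and 92.5. The sums themselves were not tested.

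The makeup of the D-type cyclin sum held more CCND3 in these 4 lines. CCND3 went from 3.52% ± 0.21 to 14.03% ± 0.98 of the sum in RPMI, from 9.96% ± 0.67 to 21.4% ± 0.86 in H-929, from 15.8% ± 0.45 to 30.5% ± 1.1 in H-1299, and from 1.64% ± 0.021 to 3.30% ± 0.12 in CAPAN-2 (SD, n = 3). The dominant cyclin did not change in any line. CCND1 made up 98.4% of the sum in CAPAN-2 and 97.2% in DLD-1 with DMSO, CCND2 90.3% in RPMI, and H-23 held both in near-equal shares (46.4% CCND1 and 48.2% CCND2).

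**Figure D4:**
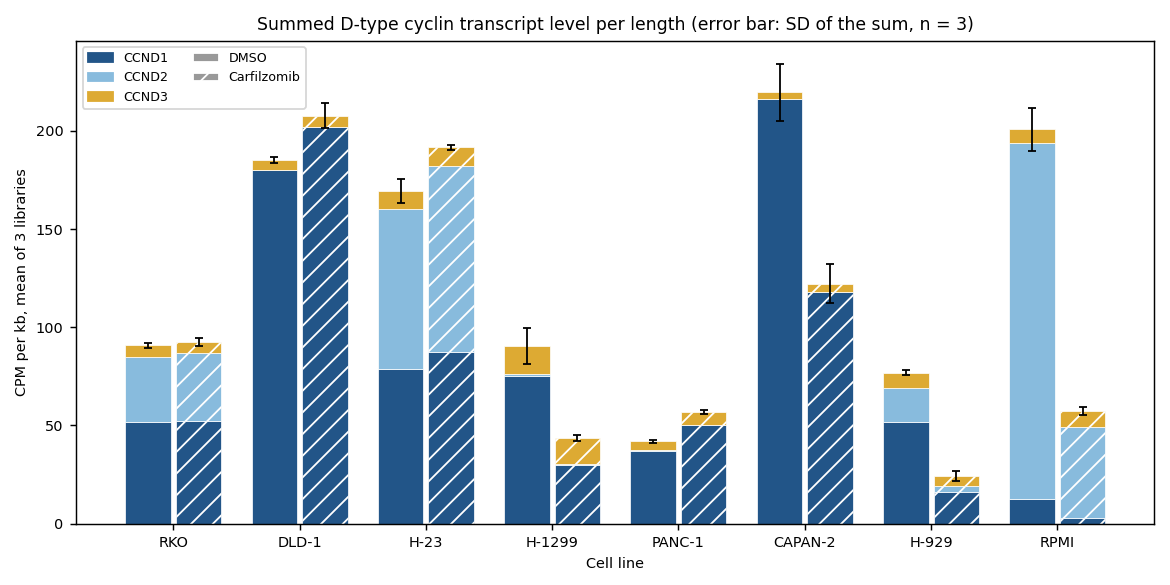
Summed level of the D-type cyclin transcripts in CPM per kilobase of exon (vertical axis, from 0) by line and treatment, stacked by gene as means of 3 libraries, with the SD of the sum as error bar. The carfilzomib bars (hatched) are lower in both myeloma lines, CAPAN-2 and H-1299, for example 201 against 57.4 in RPMI, and higher in DLD-1, H-23 and PANC-1.

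Across the 8 lines the changes of CDKN1A and CCND1 were inversely related, with a Pearson r of -0.86 (n = 8 lines, a description, since both values of a line come from the same 6 libraries). Both changes were above 0 in RKO, H-23 and PANC-1. Among pairs of CDKN1A, CDKN1B, CDKN2D, CCND1 and CCND3, the r of CDKN1A with CCND1 was the strongest. The share of all genes with such an r to CDKN1A was not computed. H-1299, H-929 and RPMI combined CDKN1A changes above 1 with CCND1 changes below -1, and H-23 was the line with CDKN1A called higher and CCND1 also called higher. CDKN1B followed neither closely, at r = 0.30 with CDKN1A and -0.16 with CCND1, while its r with CCND3 was -0.71.

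**Figure D5:**
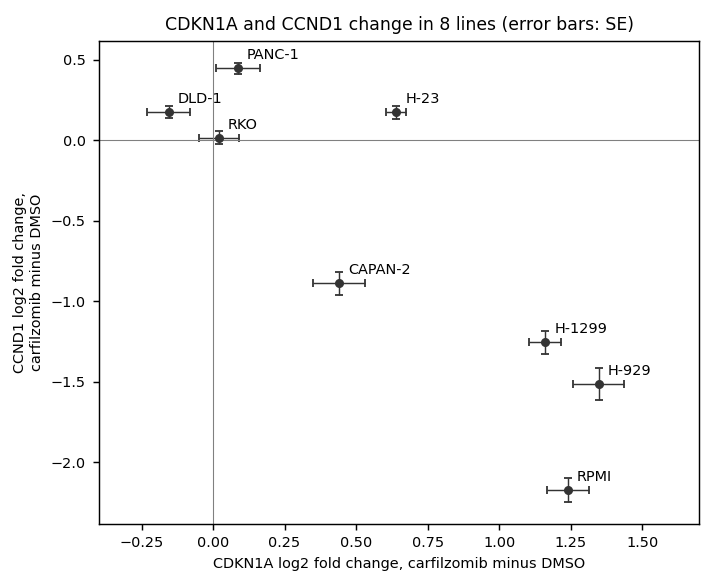
Log2 fold change, carfilzomib minus DMSO, of CDKN1A (horizontal axis) and CCND1 (vertical axis), 1 point per line with SE bars from edgeR. H-1299, H-929 and RPMI lie at the lower right (CDKN1A 1.16 to 1.35, CCND1 -1.25 to -2.17), and RKO, DLD-1 and PANC-1 near 0 on the horizontal axis.

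The kinases, cyclins and pocket proteins that these genes act with were lower in more pairs than they were higher. Of 149 tested pairs of 19 such genes and 8 lines, 80 were lower and 19 higher, against 21.1% and 20.8% of all pairs, with a median log2 change of -0.23 against 0.00 over all genes. The lines were not alike in this, and PANC-1 was evenly split at 6 against 6 (median 0.058). RBL1 (p107, a relative of RB1) fell in all 8 lines, and CDK1 and CCNA2, which drive mitosis and S phase, fell in 7. CDK4, the main partner of the D-type cyclins, fell in 6 lines, most in H-929 (-0.86) and CAPAN-2 (-0.81), and rose in PANC-1 (0.16). CDK6 fell in H-929 (-0.80), H-1299 (-0.50) and RPMI (-0.48) and rose in H-23 and PANC-1.

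RB1 fell in H-929 (-0.82), RPMI (-0.65) and DLD-1 (-0.25) and rose in H-1299 (0.28). E2F1 fell in 6 lines, most in CAPAN-2 (-1.92) and H-1299 (-0.95). CCNE1, cyclin E1, rose in 3 lines and fell in 3, and CCNE2 rose in H-929 (1.66) and H-1299 (0.84) and fell in CAPAN-2 (-1.86), RKO (-0.48) and DLD-1 (-0.36). In DMSO, CDK6 per length ranged from 62.4 CPM per kb in H-1299 to 3.56 in H-23, whereas CDK4 stayed between 18.9 and 48.7.

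Genes of the ubiquitin ligases that act on these proteins went in both directions, with 37 higher and 42 lower of 136 tested pairs (20.8% and 21.1% over all genes). SKP2, which marks p27 for destruction, fell in 6 lines, most in RPMI (-1.50) and H-929 (-0.98). Its cofactor CKS1B instead rose in RPMI (0.97) and H-929 (0.47) and fell in RKO, DLD-1, H-23 and PANC-1. SKP1, the adaptor of the same ligase, rose in 7 lines, up to 0.95 in CAPAN-2, and FBXW7, which targets cyclin E, rose in 4.

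DTL, the receptor of the ligase that destroys p21 in S phase, fell in 5 lines, most in CAPAN-2 (-1.08), and rose in H-1299 (0.51). AMBRA1, which brings D-type cyclins to their ligase, rose in 4 lines, up to 0.43 in H-1299. CDC20, an activator of the anaphase-promoting complex, fell in 5 lines and rose in CAPAN-2 (0.40).

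MDM2, a ubiquitin ligase that ARF restrains, rose in 5 lines, up to 0.76 in CAPAN-2, and fell in 1. FAS and TNFRSF10B, death receptors, each rose in 4 lines and fell in 1, with TNFRSF10B at 1.28 in RPMI. DDB2, a DNA repair gene, fell in 5 lines, among them CAPAN-2 (-0.92) and H-1299 (-0.67).

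Among 17 transcription and chromatin regulators of these genes, 41 of 136 tested pairs rose and 33 fell, where 20.8% and 21.1% of all pairs did. SP1 fell in 7 lines, by 0.13 to 0.53 on the log2 scale. JUN, a subunit of AP-1, rose in 6 lines, most in H-929 (3.15) and RPMI (2.51), and EGR1, an immediate-early factor, rose in 5, most in H-929 (2.20), and fell in RKO (-0.24) and DLD-1 (-0.40).

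Of the neighbours of the INK4 locus, CDKN2B-AS1 fell in CAPAN-2 (-0.49) and H-1299 (-0.25) and was not called in the other 4 lines tested, among them H-929 (0.17) and RPMI (0.21). MTAP rose in PANC-1 (0.41) and H-23 (0.33) and fell in H-1299, H-929 and RPMI. DMRTA1 rose in H-929 (1.83) and PANC-1 (0.17). Over the 3 genes, 4 of 21 tested pairs rose and 5 fell, near the 20.8% and 21.1% of all pairs.

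Genes placed under immunoglobulin enhancers in myeloma stood high in the lines known to carry such translocations. On the scale common to all lines, NSD2 was at 1628 CPM in H-929 with DMSO and FGFR3 at 552 CPM, against 240 to 710 and 1.30 to 47.01 CPM in the other lines. MAF was at 1019.8 CPM in RPMI, 164 CPM in H-929 and at most 1.03 CPM in the 6 carcinoma lines. Carfilzomib lowered MAF in RPMI (-1.58), where CCND2 fell by 1.88, and did not change it detectably in H-929 (0.12), where CCND2 fell by 2.48. NSD2 fell in 7 lines but not in H-929 (0.05). ITGB7, a MAF target, fell in both myeloma lines (-1.23 in H-929 and -1.96 in RPMI). Of the 168 called pairs of the named partner genes and lines, 31 lost the call without 1 library, all with changes of at most 0.74 in size.

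The genes whose 8 changes were most like those of CDKN1A, out of 10956 compared, were CCDC66 (Pearson r = 0.98), VAPB (0.98), NXF1 (0.97), TANK (0.97) and TSPYL2 (0.97). For CDKN1B they were SELENOW (0.97), DUSP1 (0.96), LGALSL (0.96), TSPYL1 (0.96) and TTN (0.95). For CCND1 they were SLC25A15 (0.99), URB1 (0.99), MYEOV (0.99), POLR3K (0.99) and BCAT2 (0.98). MYEOV lies near CCND1 on chromosome 11. These are descriptions over 8 lines whose values share libraries, chosen as the highest of many.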

How the data were processed

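RNA-seq was measured in 8 cancer cell lines with carfilzomib or DMSO, 3 libraries per group and 48 in all, between 9116329 and 64369098 counts each. The deposited matrix holds raw counts per gene, whole numbers that the authors had not normalized. The submitters' processing notes name bcl2fastq 2.19, FastQC, Trimmomatic, HISAT2 and DESeq2 and the build hg38. The counting tool, the annotation and the use of strand are not given in the sources used here. The libraries are labelled biological replicates.

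Counts were tested within each line by edgeR 4.0.16 (R 4.3.3, TMM scaling, filterByExpr, quasi-likelihood F test, Benjamini-Hochberg over all genes of the line, adjusted p below 0.05). A joint edgeR fit of 16 groups and 22309 genes tested averages, differences between lines and DMSO levels. For genes with an empty group, the lines with that group were left out of the averages and differences, while the test of DMSO levels kept all lines. CPM was scaled by TMM within a line, and levels between genes or lines by TMM over all libraries, per kilobase of GENCODE 29 exons, whose identifiers matched 87.6% of rows. The scripts were tested on simulated data. Alternatives used DESeq2 1.42.0, limma 3.58.1, other scalings, no filter, a replicate block and leave-outs.

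All 10 genes are named. From the lists, MDM2, RB1, CDK4, CDK6, CCNE1, CCNE2, E2F1, SKP2, CKS1B, DTL, AMBRA1, MTAP, CDKN2B-AS1, NSD2, FGFR3 and MAF were always named, with up to 3 further genes per list called the same way in most lines, and the 5 genes most alike in their changes for 3 of the genes (at least 50 counts on average). Some listed genes, and the counts over 2 lists that hold them, are not reported here. Genes and lists were chosen with earlier results of these data known. No 2 replicate libraries agreed within sampling noise (the lowest chi-square of 48 pairs was 3.47 times its degrees of freedom). Intervals and limits for 0 counts cover counting error only.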

Additional observations from a re-analysis of the deposited data

Results flagged for a closer look

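The change with carfilzomib differed between lines for each of the 10 genes in the joint edgeR fit (7 degrees of freedom, or 6 where a line had an empty group). Such a difference was found for 67.7% of all genes, and the dose was set separately for each line, so line and dose cannot be told apart. Among the D-type cyclins the F statistic was 205.8 for CCND1, with 3 lines called higher and 4 lower, 84.7 for CCND2, with 1 higher and 3 lower, and 16.5 for CCND3, with 2 higher and 1 lower. Among the INK4 genes it was 144.6 for CDKN2B, from -1.29 in H-1299 to 2.67 in H-929, 27.3 for CDKN2A, 13.8 for CDKN2C and 7.57 for CDKN2D. Among the CIP/KIP genes it was 43.002 for CDKN1A, with 5 lines higher and 0 lower, and 41.9 for CDKN1B, which moved in opposite directions in the myeloma lines. For CDKN1C, whose counts in most lines were too low for a test within the line, it was 10.5. That gene entered the joint fit only through its treated myeloma libraries, so its difference between lines had to follow.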

How the results depend on the processing

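The counts of 21 gene and line pairs higher and 21 lower stayed between 20 and 22 under every leave-out of a single library and between 19 and 22 under the other settings run (DESeq2 size factors, library totals, no filter, the DESeq2 Wald test, the replicate block and 1 fit of all libraries). No filter and 1 fit of all libraries also counted pairs that the main test left out. Among the 69 pairs of the main test, 1 fit of all libraries ended 4 calls, all of higher pairs, and added 1. All 10 genes differed between lines in change and in DMSO level under each setting run for those tests. For CDKN1C the difference in change had to follow, as stated above. Library totals moved the median of all genes by -0.11 in H-1299 and by less than 0.05 elsewhere. With library totals the average change of CDKN1B was 0.0060 (reversed) and that of CCND3 0.074 (adjusted p = 0.0123, then called). With lines as units (limma) the averages were 0.60 for CDKN1A, -0.63 for CCND1 and -0.13 for CDKN2D, none called, and 0.013 for CDKN1B, reversed. Leaving out 1 replicate number of every group gave averages of -0.20 to -0.16 for CDKN2D (-0.17 with all libraries), with the call lost in 2 of 3 leave-outs, and of -0.37 to 0.047 for CDKN2A (-0.18 with all, not called). The other direction changes concerned pairs that were not called: 1 fit of all libraries gave -0.039 for CDKN2C in H-929 and -0.058 for CDKN2D in RPMI, and no filter gave -0.016 for the latter. Leave-outs of 1 library ranged from -0.033 to 0.099 for CDKN1A in RKO, -0.10 to 0.0088 for CDKN1B in H-23, -0.18 to 0.0022 for CDKN2B in H-23, -0.14 to 0.0093 for CDKN2C in CAPAN-2, -0.21 to 0.11 for CDKN2D in RKO, -0.088 to 0.11 for CDKN2D in RPMI, -0.0026 to 0.042 for CCND1 in RKO, -0.81 to 0.42 for CCND2 in DLD-1 and -0.065 to 0.044 for CCND3 in H-1299. The cause of these shifts was not tested.

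Same-numbered libraries did not deviate together (r from -0.11 to 0.07, 0 of 24 pairs above 0.1, and 9 of 24 correlated best with their own number), so the numbers are not taken as pairs. With the replicate block 21 pairs were higher and 21 lower. The block ended 1 call (CDKN1B in H-1299, 0.14) and added 1 (CDKN2D in PANC-1, 0.34).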
